A study of Mus musculus with 8 samples.

Results

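The interleukin-1 family genes Il33, Il1a, Il1b, Il18, Il1rn, Il1rl1, Il1r1 and Il1rap were followed in mouse fibroblasts that carried no Pax6 insert, Pax6 or Pax6(5a). These 8 genes were listed by symbol, and every array probe annotated to 1 of them was taken: 7 genes had a probe, with 13 probes of the 24613 on the array, which cover 15967 genes. Il1rl1 had no probe listed and was not analysed here. Changes of Il33 and Il1rap on these arrays were already known when the list was drawn up, so their differences between the cell lines are given as a description, with no p-value.

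Interleukin-1 family cytokines are alarm signals that cells release on injury or infection. Il33 is stored in the nucleus of barrier and stromal cells and, once released, binds the receptor ST2, which the gene Il1rl1 encodes. Il1rap is the co-receptor that ST2 and the interleukin-1 receptor, encoded by Il1r1, both need to signal through MyD88, IRAK kinases and NF-κB. Il1a and Il1b are ligands of Il1r1, Il1rn is the antagonist that occupies this receptor without signalling, and Il18 acts through a receptor pair of its own.

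The cells were Flp-In-3T3, an embryonic fibroblast line. In the control line nothing was inserted, and the other lines expressed mouse Pax6 or Pax6(5a) cDNA, the latter with additional residues in the DNA-binding paired domain, from an expression vector with the EF1α promoter placed at the same Flp recombination site. Total RNA was hybridised to 8 Illumina Mouse Ref-8 arrays. These read the control line at passage 13 (replicates 1 and 2) and passage 19 (replicate 3), the Pax6(5a) line at passage 8 (replicates 1 and 2) and passage 13 (replicate 3), and the Pax6 line at passage 9 (replicate 1) and passage 15 (replicate 2). The control line was grown in 100 µg/ml Zeocin and both Pax6 lines in 150 µg/ml hygromycin, and no line received another treatment. Each insert was represented by 1 cell line, so insert, antibiotic and line cannot be told apart, and p-values cover only the spread among the arrays of each line. In the comparisons of lines this spread mixes preparations of the same passage with the step between passages. Preparations of the same passage may differ only technically.

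Signals below are quantile normalized intensities, and a probe was taken as detected at a detection p-value under 0.01. Between 10083 and 10685 probes were detected per array, and the lowest detected signals lay between 76.2 and 81.1. Of 10 fibroblast markers, 8 were detected on all arrays, and Fap was not detected on any. The leukocyte marker Ptprc, the macrophage markers Adgre1 and Itgam, and all measured markers of T and B cells (4 genes) and of epithelial cells (7 genes) were not detected on any array, nor were 5 of 6 mast cell markers, while Cd14 and Lyz2 of the macrophage list and Cdh5 and Egfl7 of the endothelial list were detected on all. Of these markers, Fn1, Pdgfra and Pdgfrb of the fibroblast list fell with Pax6, 2.40-fold, 1.92-fold and 1.83-fold (adjusted p = 0.0053, 0.00029 and 0.00011 by limma), while Lyz2 rose in both lines, with log2 fold changes of 0.97 and 0.78 (adjusted p = 0.00031 and 0.0012 by limma). Cdh5, which encodes VE-cadherin, gave 309 to 350 without an insert, 497 to 618 with Pax6(5a) and 867 to 868 with Pax6, while the other endothelial markers Pecam1, Kdr, Tie1 and Tek were not detected. The summed signal ran from 34061 to 40170 without an insert, 37815 to 39091 with Pax6(5a) and 34026 to 34189 with Pax6 for the fibroblast list, and from 613 to 648, 808 to 923 and 1180 to 1184 for the endothelial list. The part of these markers in the results was not tested. The Pax6 probe gave 45.2 to 56.8 and was not detected on any array, also in the Pax6 lines. Its position in the transcript was not examined, and it could not serve as a check of the labels.

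The regions upstream of Il33 are shown because it differed most between the lines, and the inserts encode transcription factors. RefSeq lists 2 starts for Il33 on chromosome 19, the second of which lies within the gene, and the 250 bases before each are given on the + strand of GRCm38.p6. Capitals mark matches, on either strand, to the motifs searched, which were GGGA and CC with any 4 bases between them (NF-κB), TGANTCA (AP-1), TATAAA (the TATA box), CCAAT (the CCAAT box), TTCACGC (a core of paired domain sites) and TAAT and ATTA with any 3 bases between them (paired-class homeodomain dimers).
Il33 first start, chr19:29924863-29925112: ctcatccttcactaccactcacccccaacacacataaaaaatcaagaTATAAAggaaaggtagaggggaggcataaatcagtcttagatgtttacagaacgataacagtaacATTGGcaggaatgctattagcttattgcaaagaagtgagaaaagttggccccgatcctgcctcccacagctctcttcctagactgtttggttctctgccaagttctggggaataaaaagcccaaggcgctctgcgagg
Il33 second start, chr19:29945540-29945789: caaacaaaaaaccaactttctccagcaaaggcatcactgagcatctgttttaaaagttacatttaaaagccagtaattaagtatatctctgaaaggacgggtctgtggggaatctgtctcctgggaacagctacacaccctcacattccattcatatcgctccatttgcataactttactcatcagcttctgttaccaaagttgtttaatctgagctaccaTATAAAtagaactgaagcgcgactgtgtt
The second Il33 start had a TATAAA that spanned bases 29 to 24 before it. The first had one at bases 203 to 198 and a CCAAT on the opposite strand, printed as its reverse complement, at bases 138 to 134. Of the 32851 upstream windows of the same length in the table, TATAAA was in 12.4%, CCAAT in 33.8%, the NF-κB motif in 17.6%, the AP-1 motif in 6.75%, the paired domain core in 1.03% and the homeodomain dimer motif in 0.463%. The last 4 had no match in the 2 windows shown, which held 45.2% and 39.6% GC. The array has 1 Il33 probe, which was not assigned to a start, so signals cannot be divided between the 2 starts.

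Among the ligands, Il33 stood out. The Il33 probe gave signals of 2989, 3058 and 3217 in control replicates 1 to 3. In the Pax6(5a) line it gave 1100, 1137 and 1857, and in the Pax6 line 171 and 248. The lines did not overlap, and the order was control, Pax6(5a), Pax6. The probe was detected on all 8 arrays, so Il33 was still measurable in the Pax6 line, at signals above the lowest detected ones. Mean signals were 3088 ± 117 (SD, n = 3), 1364 ± 427 (SD, n = 3) and 210 ± 54.1 (SD, n = 2).

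**Figure D1:**
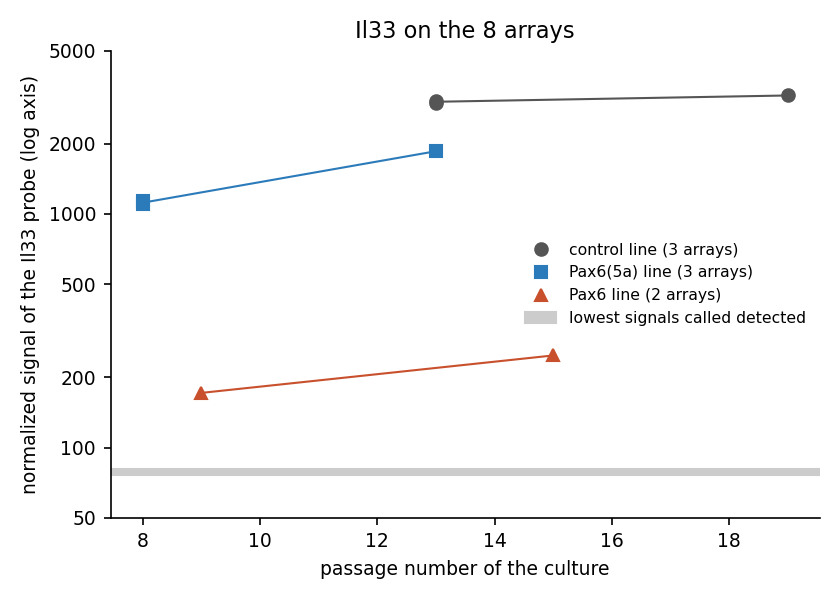
Normalized signal of the Il33 probe (log axis) against the passage number of the culture, 1 point per array, with lines that join the mean of each passage within a cell line; the grey band spans the lowest signals called detected, 76.2 to 81.1. The 3 cell lines lay at separate levels, and the signal was higher at the later passage in each.

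Against the control line, Il33 was reduced 15.0-fold in the Pax6 line (log2 fold change -3.90, SE 0.20) and 2.33-fold in the Pax6(5a) line (-1.22, SE 0.18). Of the 24613 probes, it had the lowest log2 fold change with Pax6 and ranked 28 from the lowest with Pax6(5a). Between the Pax6 lines the difference was 6.42-fold (-2.68, SE 0.20), with Il33 at rank 2 from the lowest. RNA of whole cultures was measured, so fewer cells that express Il33 and less Il33 RNA per cell cannot be told apart.

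The passages of the lines were not matched, except that passage 13 was read in both the control and the Pax6(5a) line. At that passage the mean Il33 signal was 3023 in 2 control arrays and 1857 in 1 Pax6(5a) array, a 1.63-fold difference, for which no test was made. With passage number as a covariate, the reduction of Il33 was 1.77-fold with Pax6(5a) and 12.8-fold with Pax6.

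Il18, a cytokine that is cut from a precursor by caspase-1, was the only other ligand detected. Its signals were 185, 180 and 90.4 in the control line, 165, 139 and 136 in the Pax6(5a) line and 140 and 119 in the Pax6 line, and it was detected on all 8 arrays. The lines overlapped. Il18 differed from the control line by -0.16 on the log2 scale in the Pax6 line (95% interval -0.67 to 0.35, adjusted p = 0.83 by limma) and by 0.02 in the Pax6(5a) line (-0.44 to 0.48, adjusted p = 0.99 by limma). The Pax6 line differed from the Pax6(5a) line by -0.18 (-0.69 to 0.33, adjusted p = 0.86 by limma). Without control replicate 3, whose signal lay well below the other 2, the differences were -0.50 with Pax6 (1.41-fold, adjusted p = 0.021 by limma) and -0.32 with Pax6(5a) (adjusted p = 0.13 by limma), neither past the threshold described below. The intervals over all arrays include a fall of 1.5-fold with Pax6, which therefore could not be told from no change with the spread of these arrays.

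The other ligands were at background. Il1a, a cytokine active without processing, gave 48.0 to 57.1 over the 8 arrays, and Il1b, the secreted pyrogen of macrophages, gave 45.8 to 54.4. Neither was detected on any array. Il1rn, the receptor antagonist, gave 37.5 to 50.1 and was also detected on no array. No fold is given for these 3 genes, and their signals set no order between the lines.

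Of the receptors, Il1r1 was close to the limit of detection. Its brighter probe gave 80.1, 82.8 and 82.4 in the control line, 77.0, 78.3 and 78.9 in the Pax6(5a) line and 76.8 and 75.2 in the Pax6 line. It was detected on 3 of 3 control arrays, 2 of 3 Pax6(5a) arrays and 0 of 2 Pax6 arrays. The lines did not overlap, but the differences were small: at least 1.02-fold lower with Pax6, counting signals below the lowest detected one as that one (adjusted p = 0.58 by limma), and 1.05-fold lower with Pax6(5a) (adjusted p = 0.76 by limma). The 95% interval of the log2 difference was -0.27 to 0.06 with Pax6 and -0.22 to 0.08 with Pax6(5a). The other Il1r1 probe gave 40.6 to 46.2 and was detected on no array.

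Il1rap, the shared co-receptor, was read by 6 probes, 4 of the transcript NM_008364 and 2 of NM_134103. The brightest, a probe of NM_134103, gave 314, 300 and 265 in the control line, 144, 139 and 132 in the Pax6(5a) line and 180 and 160 in the Pax6 line. No line overlapped with another. The order was control, Pax6, Pax6(5a), so the Pax6 lines stood in the opposite order from Il33. Mean signals were 293 ± 25.5 (SD, n = 3), 138 ± 5.90 (SD, n = 3) and 170 ± 13.7 (SD, n = 2) in the control, Pax6(5a) and Pax6 lines. The probe was 2.11-fold lower with Pax6(5a) (log2 fold change -1.08, SE 0.09, rank 40 from the lowest) and 1.72-fold lower with Pax6 (-0.78, SE 0.10, rank 203). Between the Pax6 lines it was 1.23-fold higher with Pax6.

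**Figure D2:**
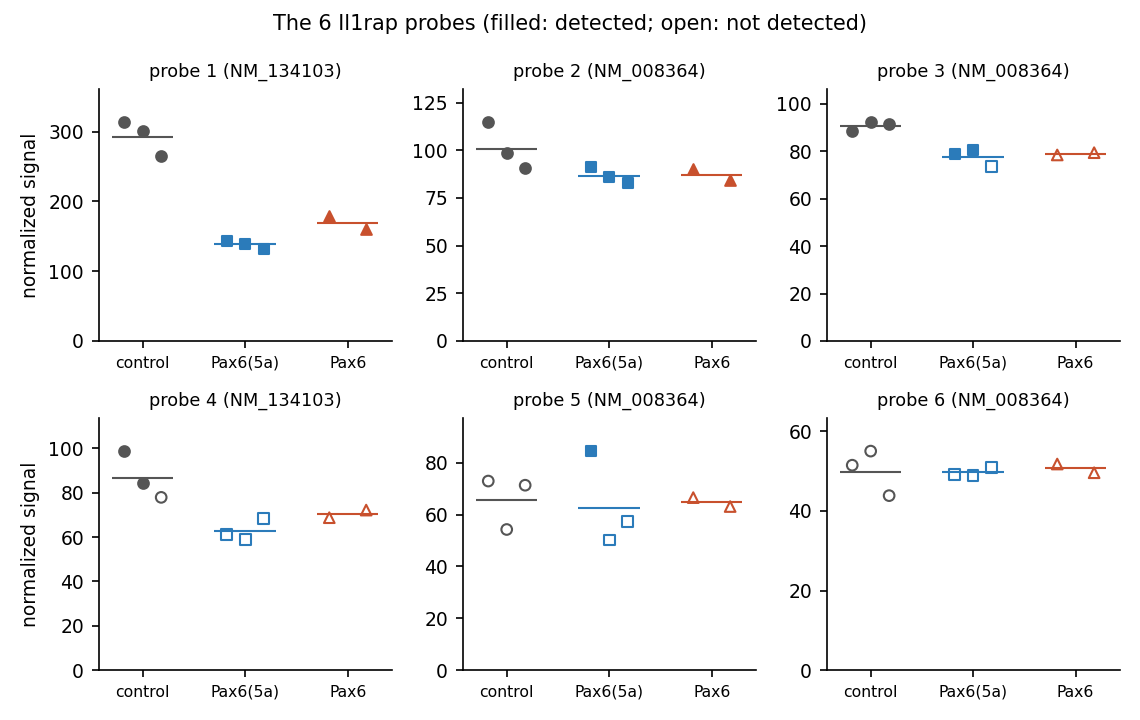
Normalized signal of each of the 6 Il1rap probes by array (each panel has its own axis from 0), grouped by cell line, with horizontal bars at the line means; filled points were detected. The brightest probe separated the 3 lines, and 5 of the 6 probes were lower on average in both Pax6 lines than in the control line.

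The other Il1rap probes were dimmer and showed smaller differences. The other probe of NM_134103 gave 98.8, 84.5 and 77.9 in the control line, 61.3, 58.9 and 68.3 in the Pax6(5a) line and 68.8 and 72.2 in the Pax6 line, and was detected only on control replicates 1 and 2. The reduction was at least 1.12-fold with Pax6(5a) and at least 1.08-fold with Pax6, and its lines did not overlap. Of the 4 probes of NM_008364, 1 was detected on all arrays, at 90.5 to 115 without an insert, 82.6 to 91.2 with Pax6(5a) and 84.2 to 90.3 with Pax6, 1.17-fold and 1.16-fold lower with the inserts. Another gave 88.6 to 92.4, 73.5 to 80.7 and 78.4 to 79.4, and the remaining 2 were detected on 1 array or none. The probes therefore had the same direction where they were detected in the control line, and only the brightest differed by 1.5-fold or more. Signals of different probes are not on a common scale, and whether the transcripts differed from each other was not tested.

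**Figure D3:**
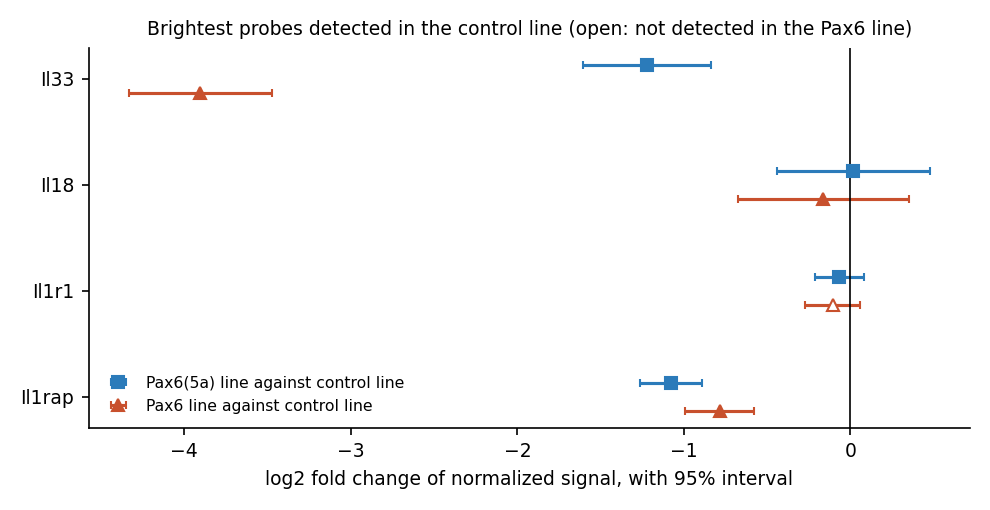
Log2 fold change (x axis) of the brightest probes of Il33, Il18, Il1r1 and Il1rap in the Pax6(5a) line (squares) and the Pax6 line (triangles) against the control line, with 95% intervals; the open point, Il1r1 with Pax6, was not detected in that line. Il33 lay at -1.22 and -3.90 and Il1rap at -1.08 and -0.78, and the intervals of Il18 and Il1r1 included 0.

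A gene was called by its brightest probe where the adjusted p was under 0.01 and the signals differed 1.5-fold or more, a threshold the study's methods use. Of the 7 genes, 2 were lower with Pax6, where 2.02% of all probes were called (0.841% higher, 1.17% lower). The same count was 2 lower with Pax6(5a), where 0.967% were called (0.439% higher, 0.528% lower). For Pax6 against Pax6(5a) it was 1 lower, where 0.569% were called (0.228% higher, 0.341% lower). These are Il33 and Il1rap, and Il33 alone between the Pax6 lines, and nothing is read from the counts because the genes were known to change when they were listed. None was higher. With Pax6(5a) the Il33 value did not reach the threshold without control replicate 1 or 2, without Pax6(5a) replicate 1 or 2, with neqc background correction and with arrays of 1 passage averaged, at 2.12-fold to 2.37-fold lower.

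The change with passage was not used to choose the genes, and each line was read at an earlier and a later passage. Il33 was higher at the later passage in all 3 lines: by 0.09 on the log2 scale in the control line (mean of 3023 to 3217), by 0.73 in the Pax6(5a) line (1118 to 1857, 1.66-fold) and by 0.53 in the Pax6 line (171 to 248, 1.45-fold). In the fit with a mean per line and a term for the later passage, the later passage was 1.36-fold higher (log2 0.44, SE 0.10, adjusted p = 0.026 by limma), which did not pass the threshold. Without control replicate 3 it did, at 1.57-fold (adjusted p = 0.0021 by limma), since the later control array showed nearly the same signal as the earlier ones. The differences of the passage term between the lines did not pass either (Pax6(5a) against control 0.64, adjusted p = 0.22; Pax6 against control 0.44, adjusted p = 0.45, both by limma).

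Il18 moved the other way with passage. The later passage differed from the earlier by -1.01 on the log2 scale in the control line (183 to 90.4, 2.02-fold lower), by -0.16 with Pax6(5a) and by -0.23 with Pax6. The overall term was -0.49 (SE 0.13, adjusted p = 0.059 by limma), and -0.19 without control replicate 3 (adjusted p = 0.40 by limma). The passage term of the Pax6(5a) line differed from that of the control line by 0.86 and that of the Pax6 line by 0.79, with adjusted p of 0.16 and 0.21 by limma. Il1rap was lower at the later passage in all 3 lines, with differences of -0.21, -0.10 and -0.16 in the control, Pax6(5a) and Pax6 lines, and the term of -0.16 did not pass (adjusted p = 0.26 by limma). None of the 7 genes passed with passage, where limma called 0.288% of all genes by their brightest probe (0.15% higher, 0.138% lower). An unadjusted p under 0.05 by limma was found for 4 of the 13 probes, among them the Il1rn probe, which was detected on no array. The share of all probes under that value was not counted, so nothing is read from this number.

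**Figure D4:**
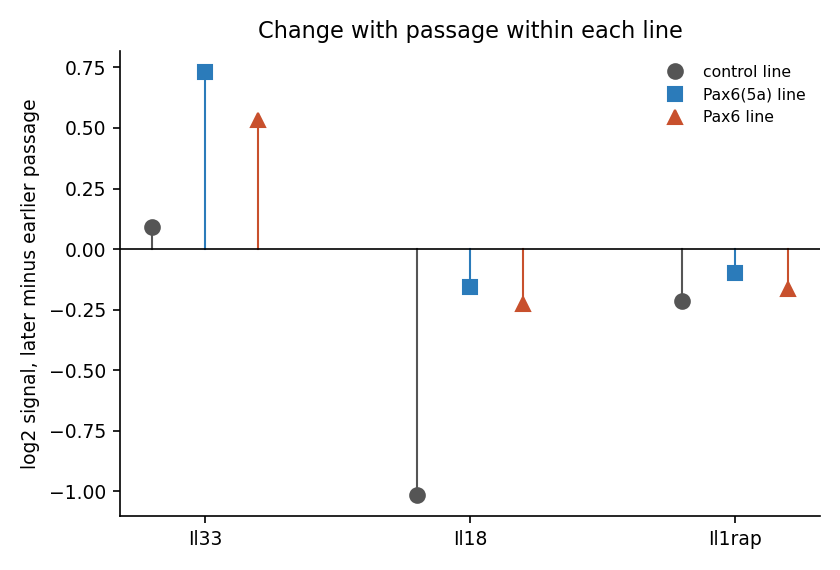
Log2 signal at the later passage minus that at the earlier passage (y axis) for the brightest probes of Il33, Il18 and Il1rap in each cell line; the control and Pax6(5a) lines have 2 earlier and 1 later array and the Pax6 line 1 of each, so no error is drawn. The Il33 point of the Pax6(5a) line lay at 0.73 and the Il18 point of the control line at -1.01.

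The genes around the family were followed with 5 lists of 102 genes, of which 91 had a probe. Compared with the control line, 1 was higher and 10 were lower with Pax6, 12.1% of those measured beside 2.45% of all 15967 genes (1.03% higher and 1.42% lower). With Pax6(5a), 3 were higher and 5 lower, 8.79% beside 1.20% (0.551% and 0.651%). In the Pax6 line against the Pax6(5a) line 3 were lower, 3.30% beside 0.676% (0.251% higher and 0.426% lower). The median log2 fold change over the 91 genes was -0.05 with Pax6 and -0.05 with Pax6(5a), and 0.00 over all genes in both. The lists were drawn up with results of these arrays known, so nothing is read from these percentages, and the comparisons share the control arrays. The lists were also not matched to all genes for detection: 52 of the 91 genes and 6963 of the 15967 were detected on all arrays.

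No other family member was found to change. All 6 other ligands and binding proteins measured, the Il36 genes, Il1f10 and Il18bp, were detected on no array. Of the 6 other receptors measured, Il18r1, a receptor chain for Il18, and Sigirr, an inhibitory receptor, were detected on all arrays, and none of the 6 was called in any line comparison by limma at the threshold.

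Of the 26 genes measured that signal from the receptor, 23 were detected on all arrays. Relb, a subunit of NF-κB, was the only one called, with Pax6, which is 3.85% of the list beside 2.45% of all genes. The Relb call was lost in 7 of 20 alternative settings. Relb gave 252, 207 and 244 in the control line and 143 and 156 in the Pax6 line, without overlap, 1.56-fold lower (log2 -0.64, SE 0.11, adjusted p = 0.0036 by limma). In the Pax6(5a) line it gave 183, 187 and 221, which overlapped with the control line (adjusted p = 0.23 by limma).

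Of 18 measured genes of cytokine processing and release, the inflammatory caspases Casp1, which cuts pro-Il1b and pro-Il18, and Casp4, the sensor of cytosolic lipopolysaccharide in mouse (caspase-11), fell in both lines. Casp1 gave 141, 127 and 130 in the control line against 73.6, 72.3 and 77.9 in the Pax6(5a) line and 79.6 and 75.1 in the Pax6 line, and only 1 of these 5 arrays detected it. The fall was at least 1.71-fold with Pax6(5a) (adjusted p = 5.1e-05 by limma) and at least 1.65-fold with Pax6 (adjusted p = 0.00012 by limma). Casp4 gave 152, 120 and 154 in the control line, 89.3, 73.5 and 97.4 with Pax6(5a) and 65.3 and 69.1 with Pax6, 1.64-fold lower (adjusted p = 0.0043 by limma) and at least 1.76-fold lower (adjusted p = 0.00029 by limma). The dimmer Casp4 probe was detected on all 3 control arrays and on none with an insert, and its fall was at least 1.06-fold with Pax6. Capn2, a calpain subunit, and S100a13, a protein of the release of Il1a, rose with Pax6(5a), by 1.53-fold and 1.59-fold (adjusted p = 0.0017 and 0.0021 by limma). With Pax6 the log2 fold change of Capn2 was 0.58, just under the threshold, although its 2 other probes passed there at 1.58-fold and 1.67-fold, and S100a13 was 1.04-fold higher.

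Of the 35 measured genes that interleukin-1 signalling is known to induce in fibroblasts, 22.9% were called with Pax6 and 11.4% with Pax6(5a). Of all genes, 2.45% and 1.20% were called. The median log2 fold change of the list was -0.07 and -0.05. This list too was drawn up with results of these arrays known. Nothing is therefore read from these shares, and the p-values of its genes carry the same limit. The acute-phase gene Hp, which encodes haptoglobin, gave 344, 346 and 229 in the control line and 58.7 to 77.0 on the 5 arrays with an insert, none of which detected it. Its fall was at least 3.75-fold with Pax6 and at least 3.89-fold with Pax6(5a) (adjusted p = 5.8e-06 and 5.3e-06 by limma), and a dimmer Hp probe, detected on 1 array of each Pax6 line, was at least 1.36-fold and at least 1.41-fold lower. Nfkbiz, an inhibitor-of-κB family protein that is itself induced by interleukin-1, gave 706, 673 and 860 in the control line, 285, 285 and 355 with Pax6(5a) and 390 and 391 with Pax6. It was 2.42-fold lower with Pax6(5a) and 1.90-fold lower with Pax6 (adjusted p = 3.1e-05 and 0.00050 by limma). Bdkrb1, an inducible bradykinin receptor, was 2.11-fold and 1.65-fold lower (adjusted p = 3.1e-05 and 0.00083 by limma). These 3 genes were low in both lines, with no overlap with the control arrays, which adds nothing, because they were named for these differences.

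The monocyte-attracting chemokines Ccl7 and Ccl2 differed between the Pax6 lines. Ccl7 gave 4673, 4287 and 4004 in the control line, 4361, 4134 and 3052 in the Pax6(5a) line and 1002 and 1432 in the Pax6 line. It was 3.60-fold lower with Pax6 (log2 -1.85, SE 0.16, adjusted p = 2.1e-05 by limma), while with Pax6(5a) the lines overlapped (-0.18, 95% interval -0.50 to 0.13, adjusted p = 0.67 by limma). Ccl2 gave 428, 413 and 459 in the control line, 553, 487 and 423 in the Pax6(5a) line and 176 and 221 in the Pax6 line. It was 2.19-fold lower with Pax6 (-1.13, SE 0.12, adjusted p = 0.00011 by limma), and its Pax6(5a) values overlapped with the control line (0.16, -0.07 to 0.40, adjusted p = 0.57 by limma). The difference between the Pax6 lines itself passed for Ccl7 (3.18-fold, adjusted p = 0.00019 by limma), for Ccl2 (2.46-fold, adjusted p = 0.00015 by limma) and for the transcription factor Irf1 (1.64-fold, adjusted p = 0.0088 by limma).

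Irf1 fell with Pax6 (log2 -0.76, SE 0.12, adjusted p = 0.0018 by limma), by its brightest probe. Of 3 dimmer Irf1 probes, 2 were detected on no array, and the other was detected on all control arrays and 1 of 2 Pax6 arrays, 1.19-fold lower without passing (adjusted p = 0.51 by limma). Cebpb, a transcription factor of the acute-phase response, was 1.65-fold lower with Pax6 (adjusted p = 0.0014 by limma) and 1.41-fold lower with Pax6(5a), where it missed (adjusted p = 0.013 by limma). Csf1, the macrophage growth factor, rose 1.53-fold with Pax6 (adjusted p = 0.0037 by limma). Ptgs2, the inducible cyclooxygenase, rose 1.58-fold with Pax6(5a) (adjusted p = 0.0057 by limma), by 1 of 2 probes, the other being detected on no array. Of the calls, 6 of 11 with Pax6 (Casp1, Casp4, Ccl2, Ccl7, Nfkbiz and Hp), 4 of 8 with Pax6(5a) (Casp1, Nfkbiz, Hp and Bdkrb1) and 1 of 3 between the Pax6 lines (Ccl2) held in all 20 alternative settings.

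**Figure D5:**
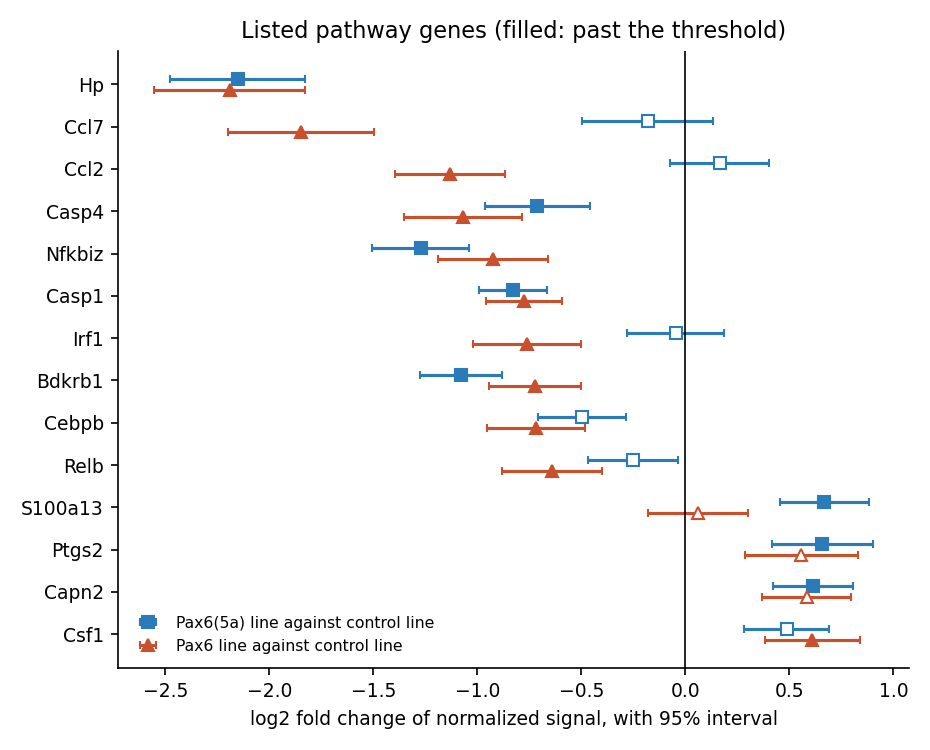
Log2 fold change (x axis) against the control line, with 95% intervals, of the 14 listed genes called in any comparison between lines, in the Pax6(5a) line (squares) and the Pax6 line (triangles); filled points passed the threshold. Hp was low in both lines, Ccl7 and Ccl2 were low with Pax6 at -1.85 and -1.13, and Csf1, Capn2 and Ptgs2 lay above 0 in both.

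With passage, 2 genes of these lists rose, both known targets of interleukin-1 in fibroblasts and both named after their values were seen: Saa3, an acute-phase protein, by 1.93-fold (adjusted p = 0.0025 by limma) and Mmp3, a matrix metalloproteinase, by 1.69-fold (adjusted p = 0.0018 by limma). Of all genes 0.15% were called higher and 0.138% lower with passage. Saa3 and Mmp3 passed in 9 and 12 of the 17 alternative settings. The setting with passage number put the 1.5-fold cut on a change per passage, and 0 of all probes were called there. With the replicate number as a block, the passage term rested on the Pax6 line alone.

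The genes whose signal across the 8 arrays was most like that of Il33, among 416 genes detected on at least 3 arrays with a log2 span of at least 1, were Igfbp4 (Pearson r = 0.985), Uhrf2 (0.985), Gpr176 (0.984), Gpnmb (0.984), Lpar4 (0.980) and Scara5 (0.978). These correlations describe 3 lines on 8 shared arrays and carry no p-value. The genes named here, also those like Il1rap, were picked by likeness on these arrays, so a shared order without overlap is largely built in. Gpnmb, a transmembrane glycoprotein, gave 3260 to 4680 in the control line, 1706 to 2597 with Pax6(5a) and 507 to 879 with Pax6, and Igfbp4, which binds insulin-like growth factors, gave 3041 to 3534, 1550 to 1940 and 631 to 748. Both had the order control, Pax6(5a), Pax6 without overlap. The genes most like the brightest Il1rap probe were Ica1 (0.994), St3gal6 (0.992), Cytip (0.989) and Sox5 (0.980). Cytip gave 580 to 788 in the control line, 77.9 to 89.6 with Pax6(5a) and 116 to 125 with Pax6, the order of Il1rap, without overlap.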

How the data were processed

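Total RNA of the 3 lines was amplified and biotin-labelled from 300 ng, and arrays were read as signal intensity. The authors deposited the intensity without normalization and after quantile normalization, with a detection p-value per probe. The program that read the arrays and the method of the detection p-values are not given in the sources used here. The intensities were quantile normalized again, which gave the deposited normalized values within 5e-05, and put on the log2 scale. No signal was 0 or below, so no background was subtracted and no low signal was filtered.

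The lines were compared with limma 3.58.1 (lmFit and eBayes) in R 4.3.3, with 1 mean per line over all 8 arrays and Benjamini-Hochberg adjustment over 24613 probes, and passage with an added term for the later passage. A call needed an adjusted p under 0.01 with a 1.5-fold difference or more. The brightest probe, by mean log2 signal over all arrays, stood for a gene. Where a line did not detect a probe, or its mean lay under the detection limit, its signals were raised to the lowest detected signal of the array and the fold is given as "at least". Symbols came from the array's platform annotation, updated through Entrez identifiers, and sequences from RefSeq (GRCm38.p6). The members and the lists were chosen with earlier results of these data known. Named list genes are all those called in any comparison between lines, and genes like Il33 and Il1rap were chosen by correlation. The fit was tested on simulated data, and the figures were drawn with matplotlib 3.10.9 in Python 3.11.15. Alternatives were neqc (offset 16) and normexp (offset 50) background correction, cyclic loess or median scaling, a filter on probes detected on under 2 arrays, a robust prior with a variance trend, fits of only the lines compared, averaged preparations, the replicate number or a random culture as a block, passage as a covariate and each array left out. The passage term by line, the bounds, the comparison at passage 13 and the genes next to Il33 were chosen after seeing the data. The number of arrays limits the precision. RT-PCR, chromatin immunoprecipitation and growth assays were not analysed here.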

Additional observations from a re-analysis of the deposited data

Results flagged for a closer look

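Of the 91 listed pathway genes measured, 3 differed between the Pax6 and Pax6(5a) lines by the test of the difference itself, 3.30% beside 0.676% of all genes. They came from the list of interleukin-1 targets in fibroblasts, the longest list, with 35 of the 91 genes. The lists were drawn up with results of these arrays known, so nothing is read from this count. The log2 difference of the Pax6 line from the Pax6(5a) line was -1.67 for Ccl7, -1.30 for Ccl2 and -0.72 for Irf1 (adjusted p = 0.00019, 0.00015 and 0.0088 by limma). All 3 were lower on both Pax6 arrays than on the 3 Pax6(5a) arrays, which adds nothing, because they were picked by this difference. The Ccl2 difference passed in 20 of 20 alternative settings and that of Ccl7 missed in 1 of 20, with neqc background correction (adjusted p = 0.013), while that of Irf1 missed in 11 of 20, and 2 of its 3 other probes were detected on no array. The fibroblast marker Pdgfrb and the endothelial marker Cdh5 also differed between these lines (1.52-fold lower and 1.62-fold higher with Pax6), and their part was not tested. No other marker of their lists was called between these lines.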

How the results depend on the processing

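The family genes called are those known to change when they were listed, so their counts describe the settings and lend no support. The count was 2 with Pax6 and 1 between the Pax6 lines in every alternative run. With Pax6(5a) it went from 2 to 1, the gene lost being Il33, with neqc background correction (1), with preparations of 1 passage averaged (1), and over the arrays left out in turn it was between 1 and 2. With passage it was 0, and between 0 and 1 over the arrays left out. Il33 was 12.5-fold to 18.5-fold lower with Pax6 and 1.77-fold to 2.76-fold lower with Pax6(5a) over all settings, and the brightest Il1rap probe 1.60-fold to 1.95-fold and 2.02-fold to 2.57-fold lower. The replicate numbers come from the labels. Deviations of the control and Pax6(5a) lines had correlations of 0.21 and 0.27 between same-numbered arrays and 0.13 and 0.19 between crossed numbers. These values do not settle whether same-numbered arrays shared a processing step. Arrays without a number formed a further level, which held the later control and Pax6(5a) arrays and both Pax6 arrays. The replicate block is therefore not separate from passage, and its passage term rested on the Pax6 line alone. With the replicate block the counts of family genes were 2, 2, 1 and 0, as without it, while of the listed genes called with Pax6, 8 of 11 were shared, Csf1, Cebpb and Irf1 were lost (adjusted p = 0.019, 0.013 and 0.012 by limma) and 4 were gained (Mmp13, Mmp3, Saa3 and Tnfaip3). With Pax6(5a) all 8 were shared and 2 gained (Mmp3 and Tnfaip3), between the Pax6 lines Irf1 was lost, and with passage Saa3 and Mmp3 were lost. Over all settings the listed genes called higher ranged from 0 to 2 with Pax6 and from 0 to 4 with Pax6(5a), where they were 0 with neqc, with averaged preparations and without Pax6(5a) replicate 2. The lower ones ranged from 7 to 11 and from 4 to 6. All probes called ranged from 295 to 705 with Pax6 and from 57 to 501 with Pax6(5a), so the calls near 1.5-fold are the least firm. Probes near 76.2 to 81.1 are limited by background, which holds for Il1r1 and 5 of the 6 Il1rap probes, and 3 genes of the family could not be measured at all.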

Other observations

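Uhrf2, which encodes a ubiquitin ligase that binds modified DNA and was among the genes most like Il33, lies near Il33 on chromosome 19. It is the second gene beyond it that a probe reads, by the RefSeq order of genes. Uhrf2 gave 2183 to 2237 without an insert, 1703 to 1741 with Pax6(5a) and 1005 to 1022 with Pax6. The lines did not overlap, and the signal was 2.18-fold lower with Pax6 and 1.28-fold lower with Pax6(5a), and 1.69-fold lower in the Pax6 than in the Pax6(5a) line. The other genes around Il33, looked up after this was seen, were mostly not measurable: of the 16 nearest with a probe, 8 on each side, 11 were detected on no array and 5, Uhrf2 among them, on all. Of these, the immune checkpoint ligand Cd274 gave 82.9 to 92.7 in the control line, 109 to 139 with Pax6(5a) and 131 to 134 with Pax6, 1.43-fold and 1.49-fold higher, and Asah2, a ceramidase, was 1.31-fold and 1.34-fold higher. Plgrkt and Ermp1 were within 1.25-fold of the control line. Of the 5, Uhrf2 passed the threshold with Pax6 and between the Pax6 lines, where 2.45% and 0.676% of all genes were called. None of the 5 did with Pax6(5a), where 1.20% of all genes were called. Uhrf2 was picked for its likeness to Il33 on these same arrays, so nothing is read from its calls.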
